A study of Mus musculus with 22 samples.

Results

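Clostridiales, an order of mostly anaerobic Firmicutes, was followed in lung tissue and colon flush of OVA-exposed and naive mice by taking every listed taxon whose lineage gives Clostridiales as its order. This gave 18 of the 40 taxa listed for lung and 13 of the 32 listed for colon, or 31 of 72 in all. Each value is the percentage of a mouse's 16S rRNA reads assigned to a taxon, in steps of 0.1%. If the values were rounded, a taxon listed at 0 held less than 0.05% of reads. The files hold no read numbers, and without them the depth behind a share is unknown. Female BALB/c mice of 6 to 8 weeks were used throughout. Ova-res mice were injected with 250 µg OVA in alum on day 0, were challenged with 50 µg OVA intranasally on day 7, and received 100 mg/kg resveratrol (RES), a plant polyphenol, by daily gavage in carboxymethyl cellulose on days 1 to 14. Ova-veh mice received the same OVA doses and carboxymethyl cellulose alone. Naive mice are named only as such in the labels, and the protocols state no handling of their own for them. The lung was measured in 3 Ova-res, 3 Ova-veh and 3 naive mice and the colon in 4 Ova-res, 4 Ova-veh and 5 naive mice. The authors' classification platform dropped some mice under its settings, and which ones is not stated. The groups were kept in isolated cages, so cage and treatment cannot be told apart. DNA was extracted with different kits from lung and colon, and no negative control was analysed here.

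Clostridiales are among the main fermenters of the mouse large intestine, where they turn fibre and mucus sugars into short-chain fatty acids. Their families Lachnospiraceae and Ruminococcaceae hold most of the known butyrate makers of the gut, and spore-forming Clostridia are known to favour regulatory T cells in the mouse colon. The lung table listed 2 Clostridiales taxa with no family, 5 of Ruminococcaceae, 8 of Lachnospiraceae and 1 each of Clostridiaceae, Dehalobacteriaceae and Peptostreptococcaceae. The colon table listed 2 with no family, 5 of Ruminococcaceae, 4 of Lachnospiraceae and 1 each of Clostridiaceae and Dehalobacteriaceae. All 13 colon names were also present in lung, and the 5 names found in lung alone were Anaerostipes, Blautia producta, Dorea, Epulopiscium and Peptostreptococcaceae. Clostridiales, Lachnospiraceae and Ruminococcaceae each appeared as 2 taxa with one lineage and no lower rank, and these are called here the more and the less abundant taxon of that name. Of 20 genera typical of airway, skin or reagents, 1 was listed in each table, Prevotella, which is also an intestinal genus. Taxa outside these 20 genera were not classed in this way. Among them, Haererehalobacter salaria of Halomonadaceae held 0.3 to 0.5% in every lung and was not listed in colon. Taxa from a list of 7 intestinal anaerobe families, Lachnospiraceae and Ruminococcaceae among them, held 58.5 to 61.1% of lung reads and 50.4 to 67.0% of colon reads. Porphyromonadaceae, also on this list, appeared in colon only.

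In the lung, Clostridiales made up close to the same share of reads in all 3 groups. It held 49.1, 49.8 and 49.9% in the Ova-res mice, 50.1, 48.2 and 45.9% in the Ova-veh mice and 50.2, 49.5 and 49.7% in the naive mice. The groups overlapped, and the single value below 48% belonged to Ova-veh mouse 3. The Ova-res mice averaged 49.6% ± 0.436, the Ova-veh mice 48.07% ± 2.10 and the naive mice 49.8% ± 0.361 (SD, n = 3 each). The difference was 1.53 percentage points between Ova-res and Ova-veh (exact permutation p = 0.4), -1.73 between Ova-veh and naive (exact permutation p = 0.3) and -0.2 between Ova-res and naive mice (exact permutation p = 0.7). Without Ova-veh mouse 3 the first 2 differences were 0.45 and -0.65 percentage points, and without Ova-veh mouse 1 they were 2.55 and -2.75. With 3 mice against 3 the smallest p that this two-sided exact test allows is 0.1. The plot of the order's share in each mouse shows lung beside colon on one scale.

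**Figure D1:**
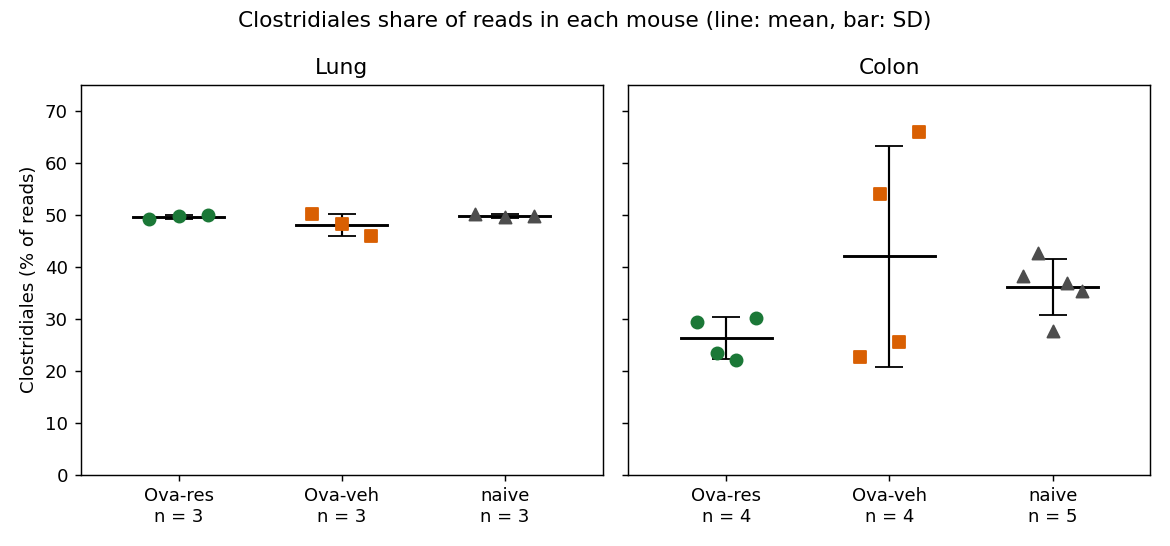
Share of reads assigned to Clostridiales (y axis, %) in each mouse of the Ova-res, Ova-veh and naive groups, in lung (left panel) and colon (right panel). Points are mice, the horizontal line is the group mean and the bar is the SD. Lung mice lie between 45.9 and 50.2% in all groups, whereas the 4 colon Ova-veh mice lie between 22.7 and 65.9%.

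The lung families kept close to the same levels across groups. Taxa with no family averaged 22.6% ± 0.2 in Ova-res mice, 21.5% ± 0.757 in Ova-veh mice and 22.8% ± 1.05 in naive mice (SD, n = 3 each). Each Ova-res mouse was above each Ova-veh mouse in this sum, at an exact permutation p of 0.1, the smallest possible, and of 1 after Benjamini-Hochberg adjustment over 24 families. Ruminococcaceae, which includes fibre degraders, held 18.6% ± 0.208, 18.3% ± 1.40 and 18.4% ± 1.42 in Ova-res, Ova-veh and naive mice (SD, n = 3 each). Lachnospiraceae held 7.5% ± 0.173, 7.57% ± 0.252 and 7.63% ± 0.404 in the same groups. Neither family differed between any pair of groups by more than 0.267 percentage points (exact permutation p between 0.8 and 1).

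The 3 small lung families each held 0.6% of reads or less in every mouse. Clostridiaceae, the family of the genus Clostridium, was listed at 0.3, 0.5 and 0.3% in Ova-res mice, at 0.3% in each of the 3 Ova-veh mice and at 0.4, 0.5 and 0.6% in naive mice. All Ova-veh mice were thus below all naive mice, at an exact permutation p of 0.1 and an adjusted p of 1 over 24 families. Dehalobacterium, a genus first known for growth on dichloromethane, was the listed taxon of Dehalobacteriaceae, with 0.3, 0.3 and 0.4% in Ova-res mice, 0.2, 0.3 and 0.2% in Ova-veh mice and 0.2, 0.3 and 0.2% in naive mice. Peptostreptococcaceae lay between 0.1 and 0.3% in every mouse, with overlap between all groups.

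Single lung taxa were tested on log2(percent + 0.05) with limma, in 1 fit of the 3 groups and with Benjamini-Hochberg adjustment over all 40 taxa. None of the 18 Clostridiales taxa passed an adjusted p of 0.05 in any comparison, and none of the 40 taxa did (0% called). At an unadjusted p under 0.05, limma gave 0 of 18 for Ova-res against Ova-veh (7.5% of all 40 taxa), 1 of 18 for Ova-veh against naive (2.5% of all taxa) and 1 of 18 for Ova-res against naive (5% of all taxa). The exact permutation test on percent cannot reach 0.05 here. In each of the 3 comparisons, 1 of the 18 taxa had groups that did not overlap, beside 5% of all taxa. These were the more abundant Clostridiales taxon in Ova-res against Ova-veh, Clostridiaceae in Ova-veh against naive and [Ruminococcus] gnavus in Ova-res against naive mice.

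The more abundant Clostridiales taxon with no family, the largest of the order in all 9 lungs, held 21.9, 22.1 and 22.4% in Ova-res mice, 21.3, 21.6 and 20.2% in Ova-veh mice and 22.1, 21.3 and 23.4% in naive mice. Its log2 change was 0.07 with a standard error of 0.04 in Ova-res over Ova-veh mice (limma adjusted p = 0.551). [Ruminococcus] gnavus, a mucin-degrading member of Lachnospiraceae whose brackets mark a disputed genus name, was listed at 0.5, 0.5 and 0.6% in Ova-res mice, at 0.8, 0.6 and 0.6% in Ova-veh mice and at 0.7, 0.7 and 0.9% in naive mice. Every Ova-res mouse was below every naive mouse. The log2 change between them was -0.48 with a standard error of 0.15 (limma unadjusted p = 0.0147, adjusted p = 0.555). For Clostridiaceae, Ova-veh over naive gave a log2 change of -0.64 with a standard error of 0.21 (limma unadjusted p = 0.0186, adjusted p = 0.556), which is a difference of 0.2 percentage points, or 2 steps of the table.

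For the abundant lung taxa, limma 95% intervals bounded the change in the share of reads, for each taxon taken alone. Oscillospira, a genus known mainly from gut sequences and thought to make butyrate, held 7.3, 7.5 and 7.5% in Ova-res mice, 8.3, 7.0 and 7.1% in Ova-veh mice and 8.0, 8.2 and 7.3% in naive mice. It was second in abundance within the order in all 9 mice, and the more abundant Ruminococcaceae taxon, at 5.5 to 7.5%, was in the third place in all 9. Ruminococcus, which includes degraders of plant fibre, held 3.2 to 3.6% over all mice and was in the fifth place in every one. For the 5 taxa above 3% of lung reads, the limma 95% intervals of Ova-res over Ova-veh together ran between log2 changes of -0.21 and 0.32, that is between 0.862 and 1.25 fold. The same 5 intervals ran between 0.841 and 1.25 fold for Ova-veh over naive and between 0.840 and 1.30 fold for Ova-res over naive mice.

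The remaining lung taxa belonged mostly to Lachnospiraceae. The more abundant Lachnospiraceae taxon held 4.3 to 5.0% and the less abundant one 1.1 to 1.7% of reads over the 9 mice. Coprococcus, a butyrate maker, lay between 0.4 and 0.6%, as did the less abundant Clostridiales taxon. Ruminococcus flavefaciens, a cellulose degrader known from the rumen, lay between 0.4 and 0.5%, and the less abundant Ruminococcaceae taxon between 0.1 and 0.4%. Blautia producta, which forms acetate, was listed at 0.2% in all 9 lungs. Epulopiscium, known for giant cells in surgeonfish guts, lay between 0.1 and 0.3%. Anaerostipes, which makes butyrate from lactate, was listed at 0.1% in all 3 Ova-res mice, in 1 of 3 Ova-veh mice and in 1 of 3 naive mice, and at 0 in the other 4. Dorea, a sugar fermenter, was listed at 0.1% in 1 Ova-res, 2 Ova-veh and 1 naive mouse and at 0 elsewhere. The groups overlapped for each of these taxa.

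Directions in the lung were mixed. In Ova-res against Ova-veh mice 11 of the 18 taxa were higher and 5 lower by limma, with a median log2 change of 0.05, beside 40% of all 40 taxa lower and a median of 0.01 over all. In Ova-veh against naive mice 6 were higher and 8 lower (42.5% of all taxa lower), and in Ova-res against naive mice 8 were higher and 8 lower (50% of all taxa lower), with the others level. With the centred log-ratio, which sets each taxon against the geometric mean of all taxa of its mouse, these 2 splits became 11 higher with 7 lower and 12 higher with 6 lower. This scaling moves every taxon of a comparison by one constant, here 0.044 and 0.039 (log2). The Clostridiales medians, 0 before it, became 0.044 and 0.039 by construction. The changed splits come from this constant and are no separate result.

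In the colon, the share of Clostridiales was lowest in Ova-res mice and most variable in Ova-veh mice. No comparison passed after adjustment, which an order alone at the lowest possible p could not pass. It held 29.3, 23.4, 22.1 and 30.2% of reads in the Ova-res mice, 22.7, 54.0, 25.6 and 65.9% in the Ova-veh mice and 38.2, 42.6, 27.7, 36.9 and 35.3% in the naive mice. The Ova-res mice lay within a narrow band at the low end, whereas 2 Ova-veh mice shared that band and 2 were above every other colon mouse. All 4 Ova-res mice were below 4 of the 5 naive mice, and naive mouse 3 fell among them. The Ova-res mice averaged 26.25% ± 4.09 (SD, n = 4), the Ova-veh mice 42.05% ± 21.3 (SD, n = 4) and the naive mice 36.1% ± 5.44 (SD, n = 5).

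Ova-res mice had 0.726 times the colon Clostridiales share of naive mice, a difference of -9.89 percentage points (two-sided exact permutation p = 0.0317, and 0.0794 after Benjamini-Hochberg adjustment over 10 orders). Ova-res against Ova-veh gave 0.624 times, or -15.8 percentage points (exact permutation p = 0.314, adjusted p = 0.619). This difference was -7.85 percentage points without Ova-veh mouse 4. Ova-veh against naive gave 5.91 percentage points (exact permutation p = 0.579, adjusted p = 0.992), which became -2.04 without Ova-veh mouse 4 and 12.4 without Ova-veh mouse 1. The smallest p that the exact test allows is 0.0286 for Ova-res against Ova-veh and 0.00794 for either group against naive mice. An order or family alone at this p would not pass adjustment. The adjusted p therefore cannot show that the share of the order or its families was unchanged.

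Clostridiales and Bacteroidales together held between 92.2 and 96.1% of the reads of each colon mouse, so these 2 shares mirrored each other. Bacteroidales, the order of the main Bacteroidetes fibre degraders, averaged 68.9% ± 4.92 in the Ova-res mice (SD, n = 4), 53.5% ± 20.9 in the Ova-veh mice (SD, n = 4) and 57.8% ± 4.51 in the naive mice (SD, n = 5). The ratio of Clostridiales to Bacteroidales was 0.441, 0.326, 0.299 and 0.478 in Ova-res mice, 0.313, 1.28, 0.369 and 2.21 in Ova-veh mice and 0.683, 0.815, 0.429, 0.646 and 0.595 in naive mice. Shares of reads sum to a whole, so they do not tell less of one order from more of the other.

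The colon families followed the order. Taxa with no family held 18.1, 12.9, 15.4 and 16.7% in Ova-res mice, 14.4, 29.1, 16.1 and 41.8% in Ova-veh mice and 25.7, 23.4, 15.6, 20.3 and 21.5% in naive mice. Ova-res mice had 0.741 times the naive mean, at an exact permutation p of 0.0397 (adjusted p = 0.136 over 20 families). Ruminococcaceae held 8.7, 6.8, 5.2 and 10.4% in Ova-res mice, 5.4, 19.1, 6.9 and 16.9% in Ova-veh mice and 10, 12.1, 9.6, 11.3 and 9.5% in naive mice. Its Ova-res mean was 0.740 times the naive mean (exact permutation p = 0.0635, adjusted p = 0.159). The naive mice lay close together in this family, whereas the Ova-veh mice held both the highest and nearly the lowest values.

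Lachnospiraceae held 2.2, 3.5, 1.4 and 2.8% in Ova-res mice, 2.7, 5.2, 2.3 and 6.9% in Ova-veh mice and 2.1, 6.8, 2.3, 5.0 and 4.1% in naive mice. The groups overlapped widely, and Ova-res had 0.610 times the naive mean (exact permutation p = 0.183) and 0.579 times the Ova-veh mean (exact permutation p = 0.229). Dehalobacterium, as the listed taxon of Dehalobacteriaceae, was at 0.3, 0.1, 0.1 and 0.2% in Ova-res mice, 0.1, 0.6, 0.2 and 0.2% in Ova-veh mice and 0.4, 0.3, 0.2, 0.3 and 0.2% in naive mice. Of the difference in the order between Ova-res and naive mice, taxa with no family made up 55.9%, Ruminococcaceae 27.6% and Lachnospiraceae 16.0%. The same 3 parts made up 60.6, 27.2 and 11.4% of the difference between Ova-res and Ova-veh mice.

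Clostridiaceae stood at the edge of the measurement in the colon. It was listed at 0, 0.1, 0 and 0.1% in Ova-res mice, at 0.1, 0, 0.1 and 0.1% in Ova-veh mice and at 0 in all 5 naive mice. Ova-veh against naive gave an exact permutation p of 0.0476 (0.556 after adjustment over 20 families), for a difference of 1 rounding step in 3 mice. No fold change is given for it against naive mice, since these are all listed at 0, and its fitted values in those 2 comparisons enter only the limma p and the counts of direction below.

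**Figure D2:**
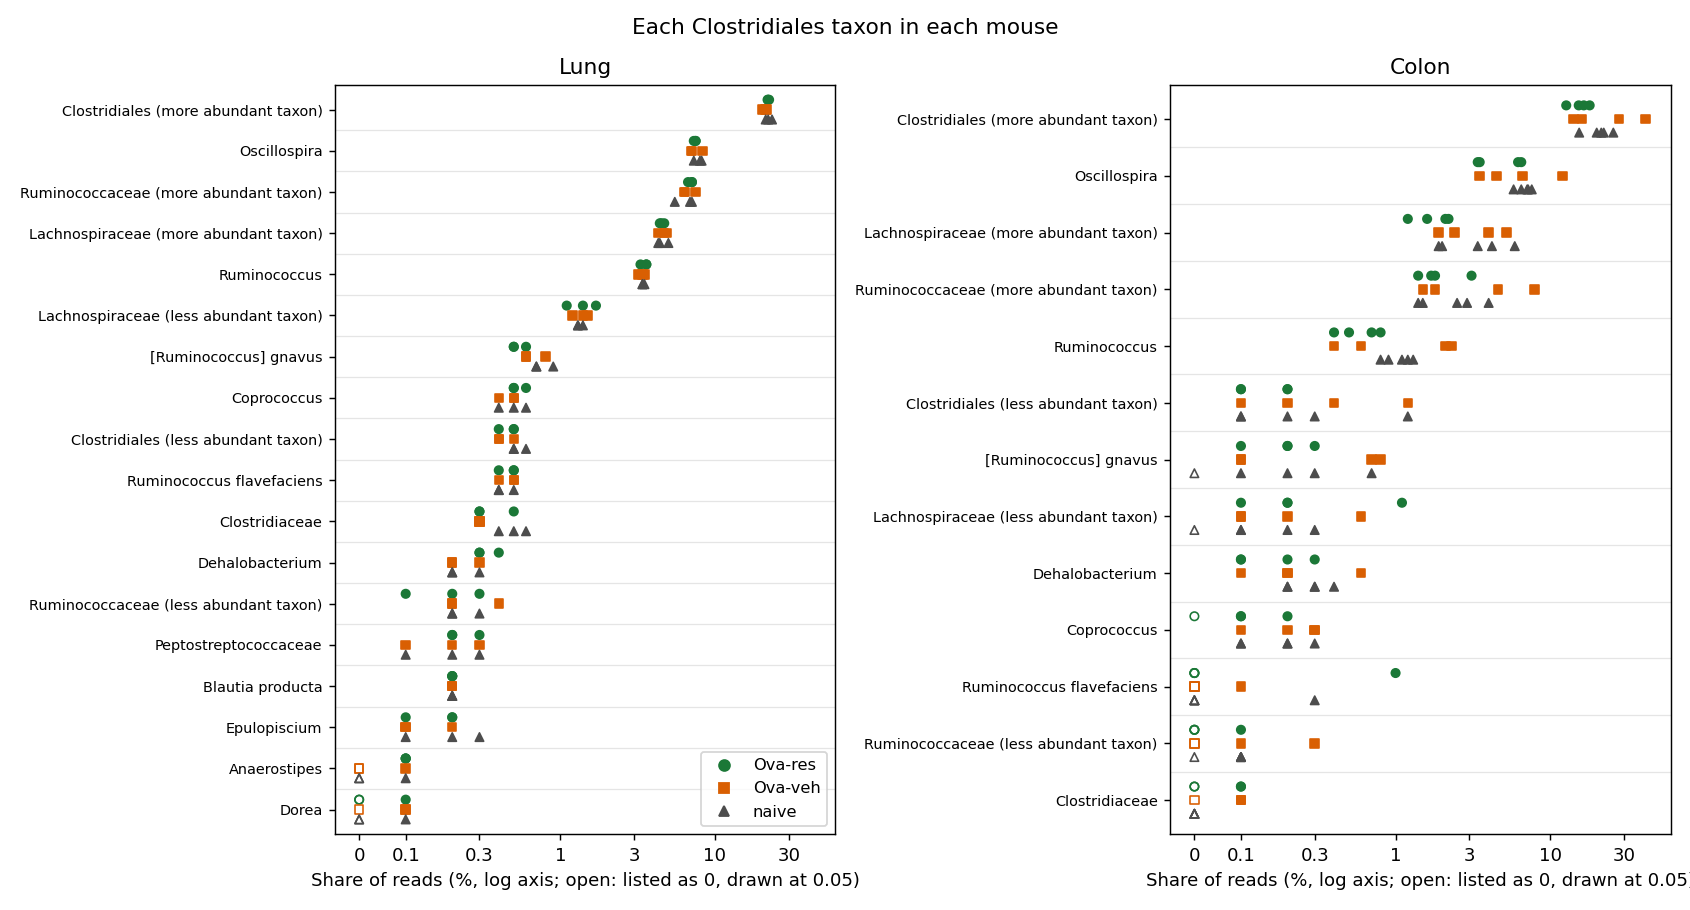
Share of reads (x axis, %, log axis) of each Clostridiales taxon in each mouse, for 18 lung taxa (left) and 13 colon taxa (right), with Ova-res, Ova-veh and naive mice from top to bottom within each taxon. Open symbols are values listed as 0, drawn at 0.05%. Lung points of a taxon lie close together, whereas colon points of the same names spread widely in all groups.

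Among single colon taxa, limma called none of the 13 Clostridiales taxa at an adjusted p of 0.05 in any comparison, nor any of the 32 taxa (0% called). At an unadjusted p under 0.05 it gave 0 of 13 for Ova-res against Ova-veh (9.38% of all taxa), 1 of 13 for Ova-veh against naive (6.25% of all taxa), which was Clostridiaceae, and 0 of 13 for Ova-res against naive (6.25% of all taxa). With mouse number as a replicate block in limma, the last 2 counts were 0 and 1 of 13, for which no share over all taxa was counted. The 1 was the less abundant Lachnospiraceae taxon, at 1.1% in Ova-res mouse 2 and 0.1 to 0.2% in the other Ova-res mice. The exact permutation test on percent called 0 of the 13 after adjustment too, but a taxon alone at its lowest p could not pass. At an unadjusted p under 0.05 it gave 0 of 13 for Ova-res against Ova-veh (3.12% of all taxa), 1 of 13 for Ova-veh against naive (6.25% of all taxa) and 2 of 13 for Ova-res against naive (25% of all taxa), so the share among Clostridiales lay below that over all taxa in the last comparison. No Clostridiales taxon had groups without overlap in any colon comparison, beside 3.12% of all taxa in Ova-res against Ova-veh, 0% in Ova-veh against naive and 6.25% in Ova-res against naive mice.

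Most colon estimates for Ova-res mice were negative, with none past the threshold. In Ova-res against Ova-veh mice 11 of 13 taxa were lower by limma, with a median log2 change of -0.55, beside 50% of all 32 taxa lower and a median of -0.01 over all. In Ova-res against naive mice 9 of 13 were lower with a median of -0.54, beside 56.2% of all taxa and a median of -0.09. In Ova-veh against naive mice 5 of 13 were lower with a median of 0.13, beside 56.2% of all taxa and a median of -0.06. These taxa share their mice and one constant sum, the comparisons share groups, and the changes are not independent of each other.

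The largest colon taxon was the more abundant Clostridiales taxon with no family, first within the order in all 13 mice. It held 18.0, 12.7, 15.3 and 16.5% in Ova-res mice, 14.2, 27.9, 16.0 and 41.4% in Ova-veh mice and 25.6, 22.2, 15.4, 20 and 21.4% in naive mice. Ova-veh mice 2 and 4 were again the highest of all. The Ova-res mean was 0.747 times the naive mean at an exact permutation p of 0.0397 (adjusted p = 0.190 over 32 taxa), and limma gave a log2 change of -0.41 with a standard error of 0.42 (adjusted p = 0.603). The less abundant Clostridiales taxon held 0.1 or 0.2% in Ova-res mice, 0.2, 1.2, 0.1 and 0.4% in Ova-veh mice and 0.1, 1.2, 0.2, 0.3 and 0.1% in naive mice.

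Oscillospira was the main genus of Ruminococcaceae and second within the order in 12 of the 13 colon mice. It held 6.2, 3.5, 3.4 and 6.5% in Ova-res mice, 3.5, 12.0, 4.5 and 6.6% in Ova-veh mice and 7.6, 6.5, 7.2, 7.1 and 5.8% in naive mice. The naive mice lay close together and the Ova-res mice formed 2 pairs, of which the higher reached into the naive range (exact permutation p = 0.0556 against naive mice, adjusted p = 0.198). Ruminococcus held 0.8, 0.5, 0.4 and 0.7% in Ova-res mice, 0.4, 2.3, 0.6 and 2.1% in Ova-veh mice and 0.8, 1.3, 0.9, 1.2 and 1.1% in naive mice. Its Ova-res mean was 0.566 times the naive mean, with overlap at a single value of 0.8% (exact permutation p = 0.0238, adjusted p = 0.152). By limma the log2 change was -0.80 with a standard error of 0.52 (adjusted p = 0.426).

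The other members of Ruminococcaceae overlapped widely between the groups. The more abundant Ruminococcaceae taxon held 1.7, 1.8, 1.4 and 3.1% in Ova-res mice, 1.5, 4.6, 1.8 and 7.9% in Ova-veh mice and 1.5, 4.0, 1.4, 2.9 and 2.5% in naive mice, with a limma adjusted p of 0.506 for Ova-res against Ova-veh. In Ova-veh mouse 4 it exceeded Oscillospira. The less abundant one was listed at 0.1% in 1 of 4 Ova-res mice, at 0.1 and 0.3% in 2 of 4 Ova-veh mice and at 0.1% in 4 of 5 naive mice. Ruminococcus flavefaciens was listed in only 3 of the 13 colon mice, at 1.0% in Ova-res mouse 2, 0.1% in Ova-veh mouse 2 and 0.3% in naive mouse 2.

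Within Lachnospiraceae, the more abundant taxon held 1.6, 2.1, 1.2 and 2.2% in Ova-res mice, 2.4, 4.0, 1.9 and 5.2% in Ova-veh mice and 2.0, 5.9, 1.9, 4.2 and 3.4% in naive mice. Its log2 change was -0.84 with a standard error of 0.50 in Ova-res over Ova-veh mice (limma adjusted p = 0.461) and -0.86 with a standard error of 0.47 in Ova-res over naive mice (limma adjusted p = 0.426). Coprococcus held 0.2, 0.1, 0 and 0.1% in Ova-res mice, 0.1, 0.3, 0.2 and 0.3% in Ova-veh mice and 0.1, 0.1, 0.2, 0.3 and 0.2% in naive mice. It had the lowest log2 change of the order between Ova-res and Ova-veh mice, -1.01 with a standard error of 0.54 (limma unadjusted p = 0.0789, adjusted p = 0.461). [Ruminococcus] gnavus held 0.1 to 0.3% in Ova-res mice, 0.1 to 0.8% in Ova-veh mice and 0 to 0.7% in naive mice. The less abundant Lachnospiraceae taxon was at 1.1% in Ova-res mouse 2 and between 0.1 and 0.2% in the other Ova-res mice, against 0.1 to 0.6% in Ova-veh mice and 0 to 0.3% in naive mice.

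**Figure D3:**
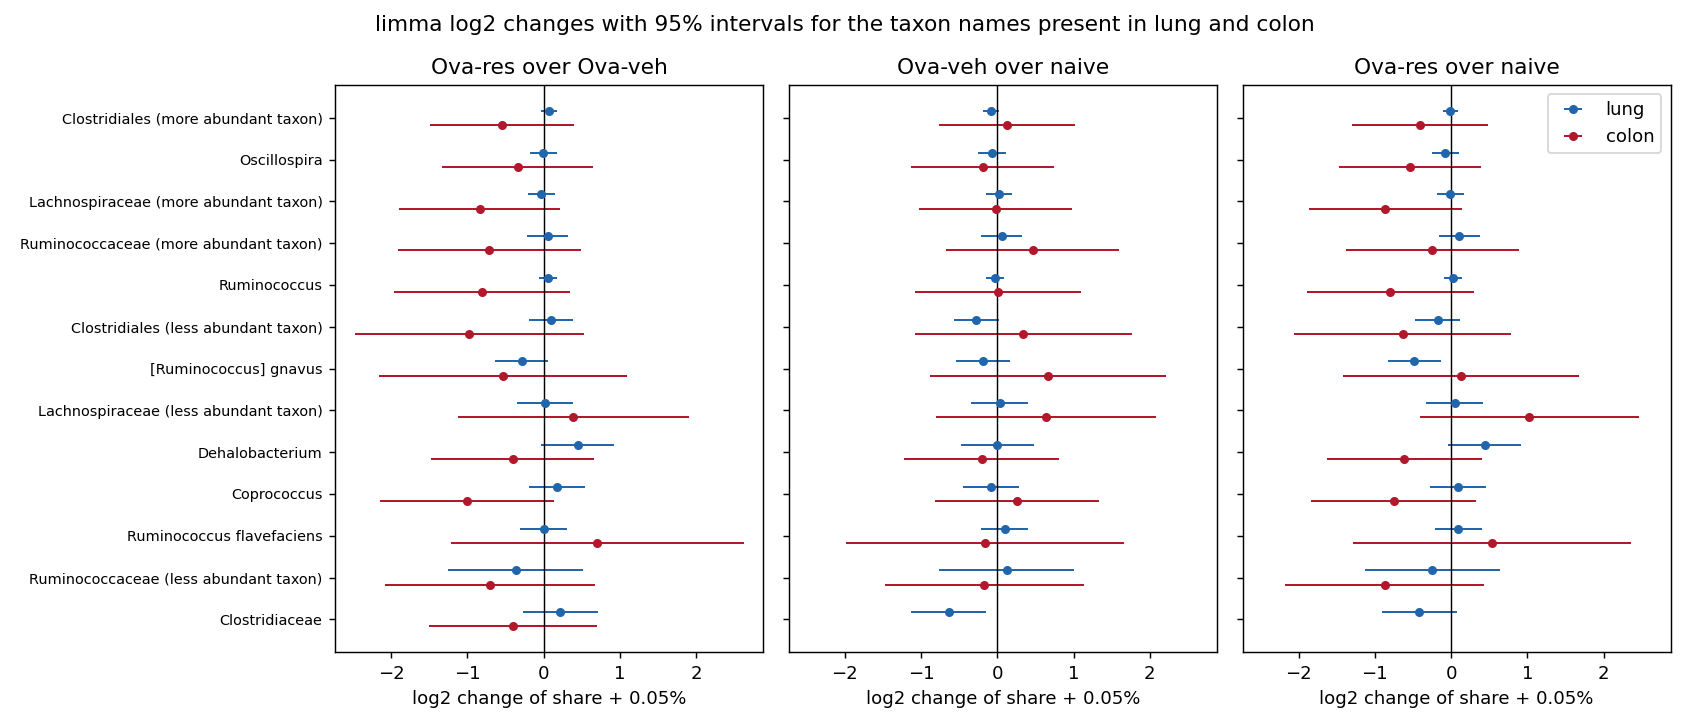
Log2 change of the share of reads plus 0.05% (x axis), by limma with 95% intervals, for the 13 taxon names present in lung and colon, in Ova-res over Ova-veh, Ova-veh over naive and Ova-res over naive mice (left to right). Where both are drawn, colon intervals are wider than lung intervals for all 13 names, and most colon estimates for Ova-res lie below 0 with intervals that include it. Colon Clostridiaceae is not drawn against naive mice, which are all listed at 0. Blue is lung and red is colon.

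Within the order, the 3 main families of the colon held close mean shares in all groups, with a wide spread between mice. Taken as a share of Clostridiales reads, taxa with no family averaged 60.5% ± 6.88 for Ova-res (SD, n = 4), 60.9% ± 4.69 for Ova-veh (SD, n = 4) and 58.9% ± 5.29 for naive mice (SD, n = 5). Ruminococcaceae held 29.2% ± 4.47, 27.9% ± 5.12 and 29.4% ± 3.42, and Lachnospiraceae 9.52% ± 3.82, 10.2% ± 1.26 and 11% ± 4.16 in the same groups. Among the Ova-veh mice 1 to 4, whose order shares were 22.7, 54.0, 25.6 and 65.9%, taxa with no family held 63.4, 53.9, 62.9 and 63.4% of the order and Ruminococcaceae 23.8, 35.4, 27.0 and 25.6%. Mice 2 and 4, both high in the order share, thus differed in makeup. The 5 most abundant names together held between 88.0 and 98.2% of the order in each colon mouse and between 89.2 and 90.8% in each lung.

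Distances between mice depended on the measure. The Bray-Curtis distance, from 0 for identical to 1 for fully different makeup, was computed on shares within the order. In the colon its median was 0.125 over 6 pairs of Ova-res mice, 0.101 over 6 pairs of Ova-veh mice and 0.108 over 10 pairs of naive mice. Between groups the colon medians were 0.110 for Ova-res to Ova-veh, 0.101 for Ova-veh to naive and 0.0979 for Ova-res to naive pairs. In the lung the medians were 0.0214 within Ova-res, 0.0301 within Ova-veh and 0.0570 within naive mice, and 0.0231, 0.0367 and 0.0299 for the same 3 pairings of groups. By these medians the mice lay no farther apart between groups than within the wider of the 2 groups. The Aitchison distance, taken on centred log-ratios and so giving rare taxa more weight, had colon medians of 3.57 within Ova-res, 3.54 within Ova-veh and 3.55 within naive mice. Between groups its colon medians were 2.87 for Ova-res to Ova-veh, 2.91 for Ova-veh to naive and 3.67 for Ova-res to naive pairs, the last above both of its groups. No test was run on these distances.

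**Figure D4:**
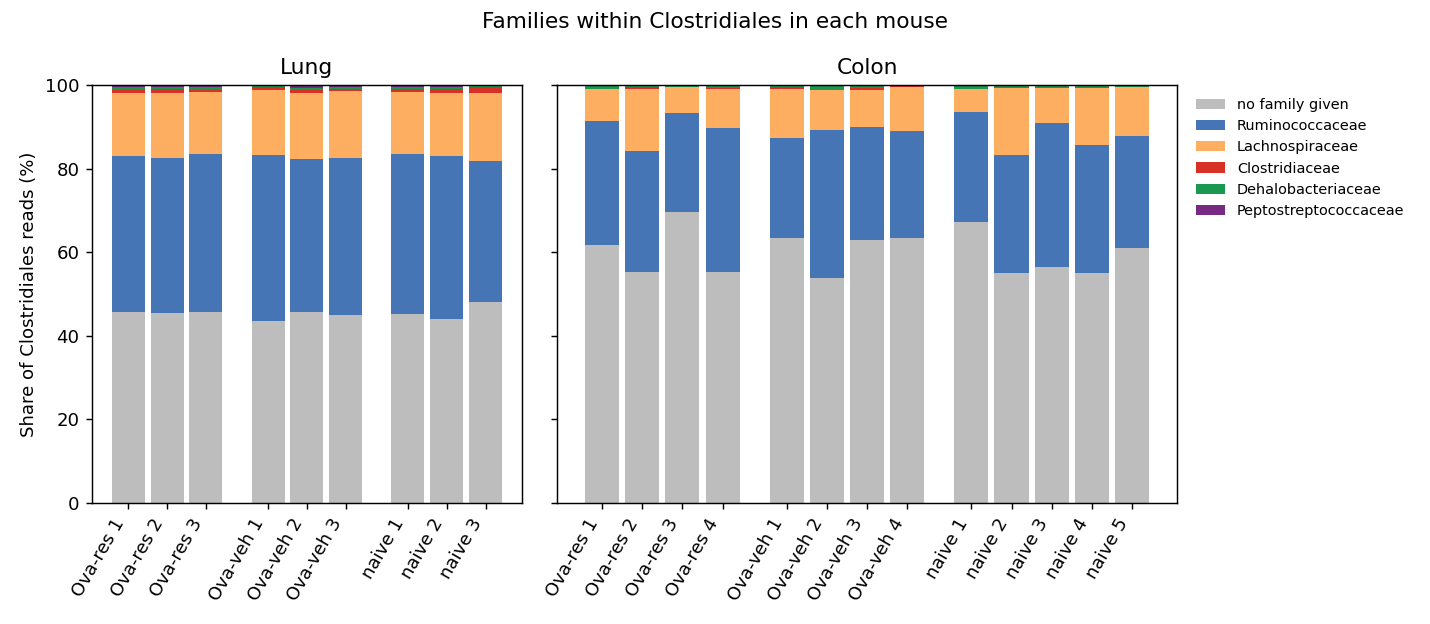
Share of Clostridiales reads (y axis, %) held by each family in each mouse of the Ova-res, Ova-veh and naive groups, in lung (left) and colon (right). Taxa with no family, Ruminococcaceae and Lachnospiraceae fill nearly all of each bar, and taxa with no family range between 53.9 and 69.7% in the colon mice.

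No taxon passed adjustment within the order, where a taxon alone at the lowest p of the exact test could not pass. Against naive mice, some colon taxa had ratios within the order near or beyond that of the order itself. The order's ratio was 0.726 for Ova-res and 1.16 for Ova-veh over naive mice. The more abundant Lachnospiraceae taxon held 6.79% ± 1.70 of the order in Ova-res (SD, n = 4) and 9.39% ± 3.45 in naive mice (SD, n = 5), a ratio of 0.723 (exact permutation p = 0.214, adjusted p = 0.463 over 25 taxa). The more abundant Ruminococcaceae taxon held 8.54% ± 2.44 in Ova-veh (SD, n = 4) and 6.66% ± 2.19 in naive mice (SD, n = 5), a ratio of 1.28 (exact permutation p = 0.278, adjusted p = 0.694). Ruminococcus held 2.25% ± 0.384 in Ova-res (SD, n = 4) and 2.95% ± 0.488 in naive mice (SD, n = 5), a ratio of 0.762 (exact permutation p = 0.0714, adjusted p = 0.463). The colon groups overlapped for all 13 taxa in all 3 comparisons, beside 4% of the 25 taxa compared within an order that did not overlap in Ova-res against Ova-veh and 0% in the other 2 comparisons. In the lung, [Ruminococcus] gnavus averaged 1.07% ± 0.111 of the order for Ova-res, 1.38% ± 0.188 for Ova-veh and 1.54% ± 0.235 for naive mice (SD, n = 3 each). Every Ova-res lung was below every Ova-veh and every naive lung in this share (exact permutation p = 0.1 each, the smallest possible). However, Ova-res mouse 3 and Ova-veh mice 2 and 3 were all listed at 0.6% of reads for this taxon. These 3 lungs differed within the order only through their order shares of 49.9, 48.2 and 45.9%. As a share of reads, Ova-res and Ova-veh lungs thus overlapped for [Ruminococcus] gnavus. Groups without overlap within the order were 2 of 18 taxa in Ova-res against Ova-veh (20% of the 30 taxa so compared), 2 of 18 in Ova-veh against naive (13.3%) and 1 of 18 in Ova-res against naive mice (13.3%). Beside [Ruminococcus] gnavus these were Anaerostipes, higher in Ova-res against Ova-veh mice, and Clostridiaceae and the less abundant Clostridiales taxon, both lower in Ova-veh than in naive mice. For Anaerostipes the lowest Ova-res value was 0.2004% and the highest Ova-veh value 0.1996%, both from a listed 0.1% of reads. Likewise, for the less abundant Clostridiales taxon the highest Ova-veh value was 0.998% and the lowest naive value 1.006%, both from a listed 0.5% of reads.

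Side by side, the 2 tissues differed in makeup and in spread, as values from tables made with different extractions and tested apart. In naive mice, taxa with no family held 45.8% of the lung order and 58.9% of the colon order, and Ruminococcaceae 37.0% and 29.4%. Among naive mice the more abundant Ruminococcaceae taxon held 13% of the order in lung and 6.66% in colon, Ruminococcus 6.89% and 2.95%, and Oscillospira 15.7% and 19.4%. The coefficient of variation over all mice of a tissue was larger in the colon for all 13 shared names, at 3.85 to 37.1% in lung and 37.1 to 261% in colon. For the order as a whole it was 2.77% over 9 lungs and 37.3% over 13 colons. Whether a lung and a colon sample of the same number came from one mouse is not given in the labels, so no relation between the tissues was computed.

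Lists of genera by function held few Clostridiales members. Of 9 genera of the order associated with butyrate, the lung table listed Anaerostipes, Coprococcus and Oscillospira, with a sum of 8.07% ± 0.153 for Ova-res, 7.97% ± 0.808 for Ova-veh and 8.37% ± 0.451 for naive mice (SD, n = 3 each). The colon table listed Coprococcus and Oscillospira, with a sum of 5.0% ± 1.74 for Ova-res (SD, n = 4), 6.88% ± 3.87 for Ova-veh (SD, n = 4) and 7.02% ± 0.701 for naive mice (SD, n = 5). Both sums are nearly those of Oscillospira. None of these genera passed the limma threshold in either tissue.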

How the data were processed

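Lung tissue from 9 and colon flush from 13 mice were profiled by 16S rRNA amplicon sequencing. The authors classified the reads with Nephele. The deposited tables, 1 for lung and 1 for colon, give the fraction of each mouse's reads per taxon to 3 decimals. Pipeline, version, reference taxonomy and read numbers were not given in the sources used here. No counting interval could be computed. Listed taxa summed to 96.2 to 97.3% of reads in lung and 96.9 to 99.0% in colon. No 2 mice had identical values.

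Fractions were turned into percent and summed by order and family. Group means were compared by two-sided exact permutation tests in Python 3.11.15, adjusted by Benjamini-Hochberg over all orders, families or taxa of a table. Taxa were fitted with limma 3.58.1 (R 4.3.3) on log2(percent + 0.05), 3 groups per fit, adjusted over all taxa. A fold change on this scale understates the change of rare taxa. Both steps were tested on simulated data. Every Clostridiales taxon and family was to be named. The members and lists were chosen with earlier results of these data known. In 3 of the 6 comparisons, each correlation of deviations between same-numbered mice was over 0.1. These were Ova-res with naive in lung (0.170 to 0.338) and colon (0.135 to 0.547) and Ova-veh with naive in colon (0.217 to 0.495). Ova-veh with naive in lung gave -0.725 to -0.271. Ova-res with Ova-veh gave -0.315 to -0.144 in lung and -0.192 to 0.407 in colon. Mice of different numbers were not compared, so a pairing is not shown. The numbers were used as pairs only as an alternative. What a number marks is not given in the labels, and replicates are taken as separate mice. Alternatives were other pseudocounts, a minimum mean, other scalings, fits of 2 groups, rank sums, a replicate block and leaving out each mouse.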

Additional observations from a re-analysis of the deposited data

Results flagged for a closer look

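Of the 90 sets of 4 or 5 colon values examined, 19 held 1 mouse that stood apart from the rest of its group by Dixon's criterion. Its cutoffs flag about 1 in 20 only for independent, normally distributed values. The sets here are not independent and their values move in steps, so no chance rate can be set beside the 19. Many of these sets are of taxa at 1 or 2 rounding steps, or repeat a taxon as a share of the order. Groups of 3 lungs were not examined in this way.

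Ruminococcus flavefaciens was listed at 1% of reads in Ova-res mouse 2, 0.1% in Ova-veh mouse 2 and 0.3% in naive mouse 2, and at 0 in the other 10 colon mice. As a share of the order these were 4.27, 0.185 and 0.704%. In each of the 3 groups the mouse that stood apart carried the number 2, and what this number marks was not tested.

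Mice 2 stood apart in other taxa too. The less abundant Lachnospiraceae taxon was at 1.1% of reads in Ova-res mouse 2, against 0.1 to 0.2% in the other Ova-res mice, which was 4.70% of the order. The less abundant Clostridiales taxon was at 1.2% of reads in naive mouse 2, against 0.1 to 0.3% in the other naive mice, or 2.82% of the order. The more abundant Clostridiales taxon held 51.7% of the order in Ova-veh mouse 2, against 62.5 to 62.8% in the other Ova-veh mice. Clostridiaceae was at 0 in Ova-veh mouse 2, with 0.1% in the other 3. The less abundant Ruminococcaceae taxon was at 0 in naive mouse 2 as a share of reads and of the order, with 0.1% of reads in the other 4.

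In other mice, the less abundant Ruminococcaceae taxon was at 0.1% of reads in Ova-res mouse 4, or 0.331% of the order, with 0 in the other 3. The less abundant Lachnospiraceae taxon held 0.910% of the order in Ova-veh mouse 4, against 0.370 to 0.441% in the others. Ruminococcus held 2.09% of the order in naive mouse 1, against 3.05 to 3.25% in the others. The more abundant Lachnospiraceae taxon held 10.6% of the order in Ova-veh mouse 1, against 7.41 to 7.89% in the others.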

How the results depend on the processing

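No alternative called a Clostridiales taxon, a family or the order after adjustment in any of the 6 comparisons. For the order and the families all alternatives were exact tests. In lung these cannot go below 0.1, so they could call nothing there. In colon an order or family alone at the lowest p would not pass adjustment either. The difference in the order share changed sign in the following cases and no other. With the log2 ratio to the geometric mean of the other orders, lung Ova-veh against naive was 0.029 and lung Ova-res against naive 0.21. Without lung Ova-res mouse 1, lung Ova-res against naive was 0.05 percentage points. Without colon Ova-veh mouse 4, colon Ova-veh against naive was -2.04 percentage points. The difference was 0 for colon Ova-veh against naive by rank sum, and for lung Ova-res against naive without lung naive mouse 1.

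Leaving out each mouse gave differences in the order share of -22.2 to -7.85 for colon Ova-res against Ova-veh, -2.04 to 12.4 for colon Ova-veh against naive, -12.0 to -8.28 for colon Ova-res against naive, 0.45 to 2.55 for lung Ova-res against Ova-veh, -2.75 to -0.65 for lung Ova-veh against naive and -0.35 to 0.05 for lung Ova-res against naive. The adjusted exact permutation p of colon Ova-res against naive ranged between 0.0952 and 0.179 over these fits, and was 0.272 with the log2 ratio. With the replicate block, this comparison gave -10.1 percentage points, with an exact permutation p of 0.125. This is the lowest for 4 pairs, so the paired exact test could call nothing. In limma the replicate block called no Clostridiales taxon after adjustment, but at an unadjusted p under 0.05 the count was 0 for colon Ova-veh against naive (1 without the block), 1 for colon Ova-res against naive (0 without it) and 1 for lung Ova-res against naive (1 without it). In the remaining comparisons the count was 2 for lung Ova-veh against naive (1 without the block). It was 0 with and without the block for Ova-res against Ova-veh in both tissues. The share of all taxa at this threshold was not counted under the block, so these counts have no rate beside them.

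Among 93 log2 changes of single taxa, the sign changed in 4 with the centred log-ratio, 1 with a pseudocount of 0.01%, 1 with the replicate block, 1 when scaled to the listed taxa and 7 as shares within the order, and in 47 of 993 values with 1 mouse left out. Of 33 differences in family shares it changed in 6 with the log2 ratio and 3 by rank sum, and in 26 of 238 values with 1 mouse left out. Of 93 differences within the order it changed in 12 with the centred log-ratio, and in 85 of 662 values with 1 mouse left out. None of these values passed the threshold after adjustment. The centred log-ratio moved the median over all colon taxa by -0.11 in Ova-res against Ova-veh and by 0.12 in Ova-veh against naive mice. Values at 1 or 2 rounding steps, and groups of 3 to 5 mice, limit what could be detected.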
